A study of Caenorhabditis elegans with 6 samples.

Results

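The F-box A genes of Caenorhabditis elegans are a large, nematode-expanded family of protein-coding genes named fbxa and a number. By gene type and name, 175 of the 22389 genes with counts were taken as members, with 1 name left out. Polyadenylated RNA was sequenced from adult worms grown on solid media, in 3 libraries of linc-4 worms and 3 of wild type worms. The linc-4 genotype is a CRISPR deletion of linc-4, a long intergenic non-coding RNA gene, in the N2 background, and the wild type is N2, the laboratory strain, so both groups share that background. Whole adults were used. No source at hand states the extent of the deletion, the sex of the worms, the number of worms per library or whether libraries came from separate cultures, so the spread between libraries may be technical.

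An F-box protein is the part of an SCF ubiquitin ligase that recognises the substrate: its F-box motif binds a Skp1-type adaptor, which holds it to the cullin CUL-1, and the ligase then marks the bound protein with ubiquitin. Most F-box A proteins pair an F-box with an FTH domain, named after FOG-2, the F-box protein that lets hermaphrodites make sperm. Substrates are unknown for most members. For fbxa-75 and fbxa-158, the ligase partners are known. They act with the cullin CUL-6 and the adaptors SKR-3, SKR-4 and SKR-5. That ligase belongs to the intracellular pathogen response, a program switched on by microsporidia and virus infection. No sequence of these genes was at hand, and none is printed.

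Total counts were 7567425, 6560089 and 12790323 in the linc-4 libraries and 3736372, 7428665 and 5643577 in the wild type libraries. The deleted gene had 5, 1 and 1 reads in linc-4 worms, against 193, 345 and 234 reads in wild type worms. Markers of the germ line moved between the groups. All 10 oocyte markers were called lower in linc-4 and 7 of 9 tested sperm markers were called higher (limma-voom, adjusted p under 0.05). The summed level of the oocyte markers ran from 1471 to 1575 CPM (counts scaled to library size) in linc-4 libraries and from 2234 to 2657 CPM in wild type libraries. The sperm markers summed to between 475 and 536 CPM in linc-4 libraries and between 211 and 282 CPM in wild type libraries. Without linc-4 2, 5 of the 10 oocyte markers and 6 of the 9 sperm markers were called. Of 8 general germline markers 4 were lower (1 without linc-4 2), and of 6 body wall muscle markers 3 were higher. With a library left out, between 1 and 3 intestine markers were called higher and 0 or 1 lower. For epidermis markers, 1 or 2 were called higher and 0 or 1 lower. As reported, intestine markers split into 2 higher and 2 lower of 8, epidermis markers into 1 higher and 1 lower of 6, and none of 6 neuron markers was called by limma-voom, limma-trend or the authors, or had an unadjusted p under 0.05. In whole worms, fewer cells of a type and less RNA per cell cannot be told apart, and the part of these marker shifts in the values below was not tested.

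Most F-box A genes were transcribed at low levels. A read was seen for 166 of the 175 members, and 9 (fbxa-16, fbxa-35, fbxa-56, fbxa-81, fbxa-160, fbxa-194, fbxa-208, fbxa-213 and fbxa-221) had none in any library. The number of members with a read was 152, 144 and 155 in the linc-4 libraries and 134, 149 and 141 in the wild type libraries, which differ in depth. The filter on low counts asked for 15 reads in all and, in at least 3 libraries, for the CPM that 10 reads make in a library of median size. It was passed by 86 members. That is 49.1% of the family, against 66.6% of all 20191 protein-coding genes. Tested members had a median level of 4.21 CPM per kb of exon, against 9.35 CPM per kb for all 13778 tested genes, and 15 members lay above that median of all genes.

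A few members held much of the family's RNA. The 5 members with the most reads had 36.8% of the 37036 member reads, and the first 10 had 48.1%. fbxa-215 on chromosome IV was the highest, with 103, 118 and 132 CPM in linc-4 libraries, against 134, 167 and 130 CPM in wild type libraries. The groups overlapped, and its log2 fold change of -0.29 did not pass (SE 0.15, adjusted p = 0.20, limma-voom). Per kb of exon, its mean level was 87.5 CPM in linc-4 worms and 107 CPM in wild type worms. fbxa-206 came next with 43.1 CPM per kb in linc-4 worms and 67.6 in wild type worms. Then came fbxa-210 with 34.7 and 45.8 CPM per kb, fbxa-114 with 30.2 and 36.4, and fbxa-101 with 29.3 and 35.03, each time in linc-4 and in wild type worms. The levels of these last 3 lay within a few CPM per kb of each other in linc-4 worms.

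**Figure D1:**
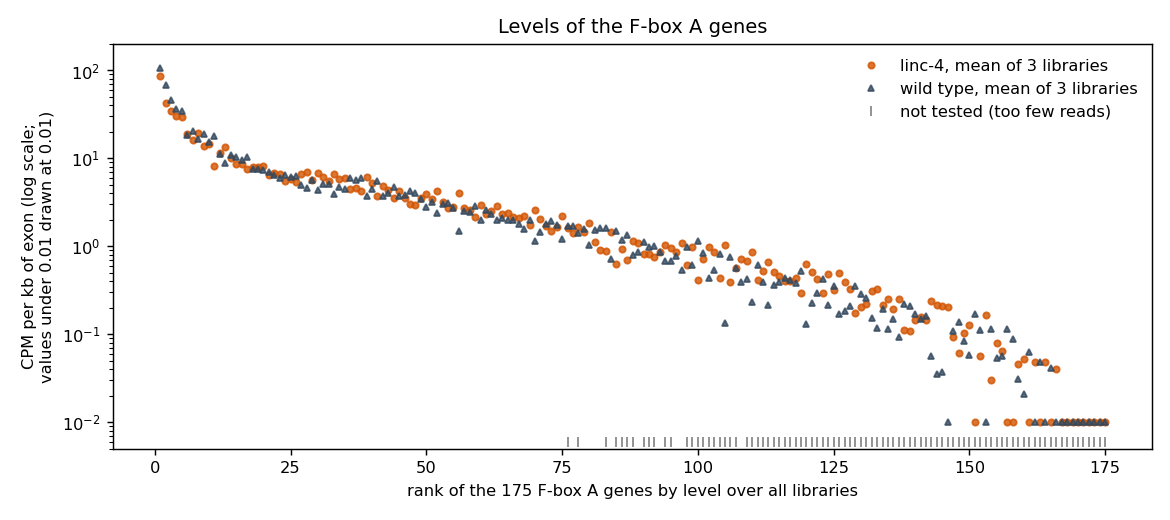
Mean level of the 175 F-box A genes in CPM per kb of exon (log scale, values under 0.01 drawn at 0.01), ordered by their level over all libraries, for linc-4 (circles) and wild type (triangles), with ticks under the members that had too few reads to be tested. The first 5 members stand above the rest in both groups, with fbxa-215 at 87.5 in linc-4 and 107 in wild type.

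Of the 86 tested members, 6 were called between linc-4 and wild type worms. This is 6.98% of the tested members, where 18.7% of all tested genes were called. The members called higher in linc-4 numbered 4, or 4.65%, beside 11.5% of all genes, and those called lower numbered 2, or 2.33%, beside 7.18% of all genes. Upper-quartile scaling moved the median of all genes by 0.11 on the log2 scale. It called 2065 genes higher and 476 lower in the whole table, against 1591 higher and 989 lower as reported. Members were more often of low count than other genes, which widens their errors: the median SE of the log2 fold change was 0.26 for members and 0.21 for all genes. Among genes with a mean count from 10 to under 100, 3 of 70 members were called, or 4.29%, beside 15.1% of all genes of that range. The groups did not overlap in CPM for 22 tested members (12 higher and 10 lower in linc-4), or 25.6%, beside 38.9% of all tested genes. At an unadjusted p under 0.05 there were 19 members, or 22.1%, beside 34.5% of all genes. Each share was below that of the whole table, and the difference between the shares was not tested.

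The fold changes of the family were centred near 0. The median log2 fold change of the tested members was 0.06 (quartiles -0.26 and 0.28), against -0.01 (quartiles -0.31 and 0.39) for all tested genes. 50 members had a value above 0 and 36 a value below. Of the 80 members that were not called, 52 had a 95% interval of the fold change that stayed within 2-fold in either direction, and 28 had an interval that reached 2-fold, so a change of that size could not be bounded for those. fbxa-224 on chromosome II was the one uncalled member with a log2 fold change beyond 1, at 1.29 (SE 0.53, adjusted p = 0.10, limma-voom). It had 1.92, 1.34 and 2.06 CPM in linc-4 libraries and 1.54, 0.913 and 0.180 CPM in wild type libraries, and the groups overlapped.

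**Figure D2:**
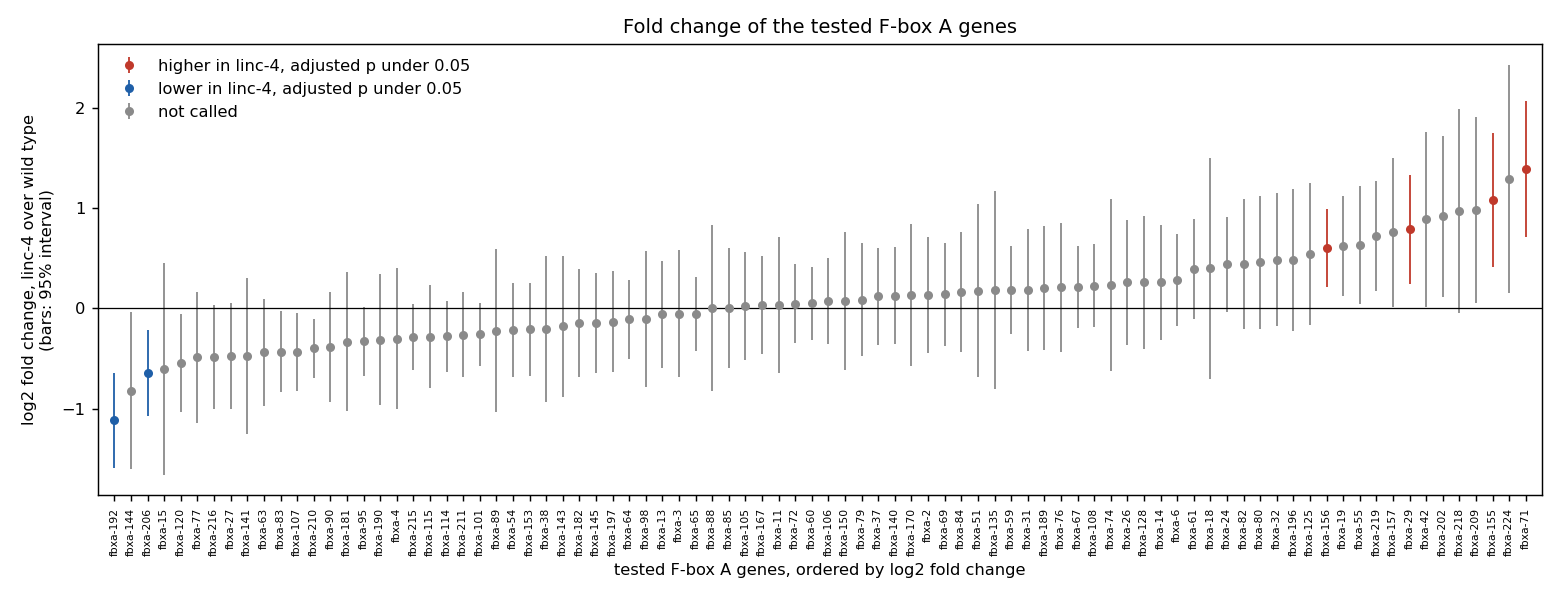
Log2 fold change (linc-4 over wild type) of the 86 tested F-box A genes with 95% intervals, ordered from lowest to highest, with the 4 called higher and the 2 called lower in linc-4 in colour. Values run from -1.12 for fbxa-192 to 1.39 for fbxa-71, and most intervals include 0.

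fbxa-71 (WBGene00020639) rose the most of the 86 tested members. It lies on the + strand of chromosome III from 2255949 to 2256949 (WBcel235, as deposited), in a tandem group of 15 F-box A genes. It had 5.25, 5.94 and 4.49 CPM in linc-4 libraries, against 1.54, 1.52 and 2.71 CPM in wild type libraries. Every linc-4 library was above every wild type library, and the means were 5.23 ± 0.73 and 1.92 ± 0.68 CPM in linc-4 and wild type worms (SD, n = 3 each). The rise was 2.63-fold (log2 fold change 1.39, SE 0.31, adjusted p = 0.010, limma-voom over all tested genes). The call held without any 1 library, with an adjusted p of at most 0.044. The level is low: 140 reads in linc-4 and 31 in wild type libraries.

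fbxa-155, also on chromosome III (10007966 to 10010177, - strand), stands alone, with no other member within 20 kb. It had 3.59, 3.12 and 3.20 CPM in linc-4 libraries, against 1.29, 1.68 and 1.44 CPM in wild type libraries, with no overlap. The rise was 2.12-fold (SE of the log2 fold change 0.31, adjusted p = 0.029). It was lost without any 1 library other than wild type 2, with an adjusted p of up to 0.081 without wild type 3.

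fbxa-29 lies in the largest tandem group of the family, on chromosome III (1272474 to 1273676, - strand). Its level was 8.84, 9.51 and 8.45 CPM in linc-4 libraries and 6.69, 5.94 and 3.43 CPM in wild type libraries. All linc-4 values were above the wild type ones, and wild type 3 was the lowest. The rise was 1.73-fold (adjusted p = 0.044, limma-voom). It was lost without any 1 library other than wild type 2, with an adjusted p of up to 0.19 without wild type 3. It was also lost with no filter on low counts (adjusted p = 0.050). fbxa-31, the one tested neighbour under the naming rule here, had a log2 fold change of 0.18 (adjusted p = 0.68).

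fbxa-156, on chromosome V (17895268 to 17896804, - strand), was expressed at 14.5, 17.1 and 17.6 CPM in linc-4 libraries and 10.3, 10.7 and 11.2 CPM in wild type libraries. The wild type values lay close together and below all linc-4 values. The rise was 1.52-fold (adjusted p = 0.034, limma-voom), and was lost without any 1 library other than linc-4 1, with an adjusted p of up to 0.11 without linc-4 2. Its tandem neighbour fbxa-157 had 2.95, 5.94 and 6.47 CPM in linc-4 libraries and 2.83, 2.89 and 2.89 CPM in wild type libraries. The groups did not overlap, but linc-4 1 was close to wild type, and the log2 fold change of 0.76 did not pass (adjusted p = 0.14). Without linc-4 1 it did (adjusted p = 0.027).

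**Figure D3:**
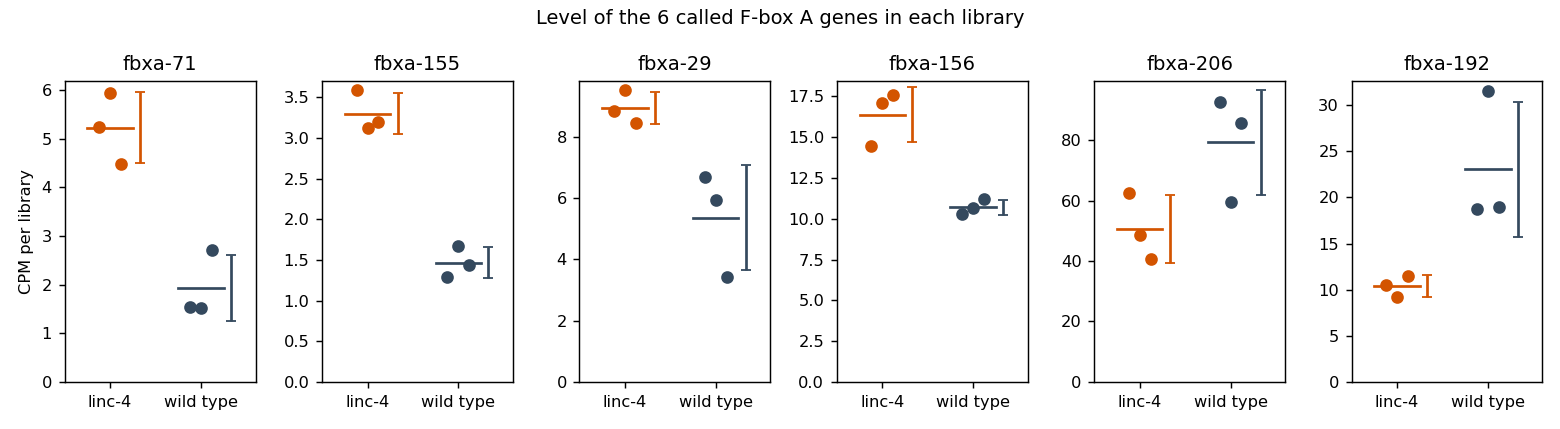
CPM of the 6 called F-box A genes in each library (points), with the group mean (line) and SD (bar, n = 3), linc-4 on the left and wild type on the right of each panel. The groups overlap for fbxa-206 alone among these 6, where linc-4 1 at 62.6 CPM lies above wild type 2 at 59.7 CPM.

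fbxa-192 (WBGene00010212) fell the most of the 86 tested members. It lies on chromosome V from 17640672 to 17650527 on the - strand. It had 10.5, 9.21 and 11.5 CPM in linc-4 libraries, against 18.8, 31.5 and 18.9 CPM in wild type libraries. The groups did not overlap, and wild type 2 was far above the other two. Means were 10.4 ± 1.15 CPM in linc-4 and 23.1 ± 7.31 CPM in wild type worms (SD, n = 3 each). The level was 2.17-fold lower (log2 fold change -1.12, SE 0.22, adjusted p = 0.0052, limma-voom), and the call held without any 1 library, at an adjusted p of at most 0.033. Its neighbour fbxa-108 had a log2 fold change of 0.23 (adjusted p = 0.42).

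fbxa-206, the second highest member by level, lies on chromosome V from 16917196 to 16918478 on the - strand. It had 62.6, 48.6 and 40.5 CPM in linc-4 libraries and 92.6, 59.7 and 85.7 CPM in wild type libraries, so that wild type 2 fell inside the linc-4 range. It was 1.56-fold lower (log2 fold change -0.65, SE 0.20, adjusted p = 0.038, limma-voom). The call was lost without linc-4 2, linc-4 3, wild type 1 (adjusted p = 0.14) or wild type 3, and with upper-quartile scaling (adjusted p = 0.083).

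The authors' deposited table, which gives an adjusted p for 135 members, called 3 of them: fbxa-71, fbxa-206 and fbxa-192. This is 2.22%, beside 11.5% of all 17551 genes with an adjusted p there. In the authors' deposited table fbxa-155, fbxa-156 and fbxa-29 had adjusted p-values of 0.11, 0.083 and 0.11. Since that table was made from the same libraries, it is not independent of the calls above.

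The sign of the fold change was set against the level of the members. Of the 15 tested members above the median level of all genes, 11 had a log2 fold change below 0, with a median of -0.26. Of the other 71 tested members, 46 had a value above 0, with a median of 0.13. Over all tested genes the same split gave medians of -0.07 and 0.06. Most of these members did not pass, and the difference between the levels was not tested. Of the members tested on chromosome III, only fbxa-60 (18.9 CPM per kb) lay above the median level of all genes. The split by level therefore overlaps with the split by chromosome given below, and their parts were not separated. All 5 of the highest members had lower mean levels in linc-4 worms, though fbxa-206 alone of these 5 was called. For fbxa-210, the level was 47.4, 44.4 and 46.2 CPM in linc-4 libraries and 63.5, 60.0 and 58.8 CPM in wild type libraries, with no overlap. Its log2 fold change was -0.40 (SE 0.14, adjusted p = 0.056), and it passed with median-of-ratios scaling (adjusted p = 0.048). fbxa-101 had 30.4, 33.4 and 35.9 CPM in linc-4 libraries and 40.4, 39.3 and 39.5 CPM in wild type libraries, also with no overlap, and did not pass (log2 fold change -0.26, adjusted p = 0.23). fbxa-114 overlapped between groups (log2 fold change -0.28, adjusted p = 0.24).

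The summed level of all 175 members was 811, 801 and 839 CPM in linc-4 libraries and 892, 920 and 862 CPM in wild type libraries (means 817 ± 19.4 and 891 ± 28.96, SD, n = 3 each). The groups did not overlap with this scaling, but did with upper-quartile scaling. Without fbxa-206 and fbxa-215, the sums were 646, 635 and 666 CPM in linc-4 libraries and 665, 693 and 647 CPM in wild type libraries, and overlapped. Both genes had lower means in linc-4 worms, so leaving them out narrows the gap by construction. The separation of the groups in the family's sum did not hold without them or with upper-quartile scaling. What the other members add to the lower sum was not tested.

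The family is unevenly placed in the genome. Chromosome V holds 70 members, chromosome III 64, X 16, II 14, I 6 and IV 5, so that 76.6% of members lie on III or V, against 38.02% of all protein-coding genes. With neighbours joined where at most 20 kb lie between them, 123 members fall into 24 tandem groups and 52 stand alone. The largest group has 29 members within 113 kb of chromosome III. Members had a median exon length of 1133 bases (quartiles 1017 and 1314), against 1161 bases (quartiles 781 and 1791) for all protein-coding genes.

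Most fold changes of the members tested on chromosome III were above 0, though few passed the test. Of the 33 tested there, 25 had a log2 fold change above 0, 3 were called higher and none was called lower by limma-voom, limma-trend or the authors, or lay below 0 at an unadjusted p under 0.05. The 3 calls are 9.09% of the tested members there, beside 8.15% of all tested genes of chromosome III and 11.5% of all tested genes. The median of the members was 0.21, whereas the 2171 tested genes of chromosome III had a median of -0.09 and 42.5% of them lay above 0. The 64 members summed to 210, 210 and 202 CPM in linc-4 libraries and 178, 186 and 181 CPM in wild type libraries. The groups did not overlap, and did not with either other scaling. Without fbxa-71, fbxa-155 and fbxa-29 the sums were 192, 192 and 186 CPM in linc-4 libraries and 168, 177 and 173 CPM in wild type libraries, still apart. Across the other scalings, filters, fits and left-out libraries, the number of tested members above 0 was between 23 and 26.

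On chromosome V, by contrast, 19 of 35 tested members had values above 0 and 16 below, with 1 called higher and 2 lower and a median of 0.01 (all tested genes of chromosome V had a median of 0.07). The calls are 2.86% higher and 5.71% lower, beside 15.4% and 7.23% of all tested genes of chromosome V. The sum over the 70 members was 379, 347 and 380 CPM in linc-4 libraries and 439, 435 and 416 CPM in wild type libraries, with no overlap. Without fbxa-206 the sums were 316, 298 and 339 CPM in linc-4 libraries and 347, 375 and 330 CPM in wild type libraries, which overlapped. On the other chromosomes together, 6 of 18 tested members had values above 0 and none was called by limma-voom, limma-trend or the authors, with 3 at an unadjusted p under 0.05. The 16 members on X summed to 17.2, 19.01 and 16.1 CPM in linc-4 libraries and 22.4, 21.01 and 21.3 CPM in wild type libraries, with no overlap under any of the 3 scalings. The sum was 55.1, 59.1 and 61.5 CPM in linc-4 libraries and 72.0, 63.0 and 67.8 CPM in wild type libraries on chromosome I. It was 34.4, 36.7 and 35.5 CPM in linc-4 libraries and 29.6, 32.0 and 33.9 CPM in wild type libraries on chromosome II. Those on I overlapped with upper-quartile scaling and those on II with median-of-ratios scaling. On IV the sums overlapped. The difference between chromosomes was not tested.

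**Figure D4:**
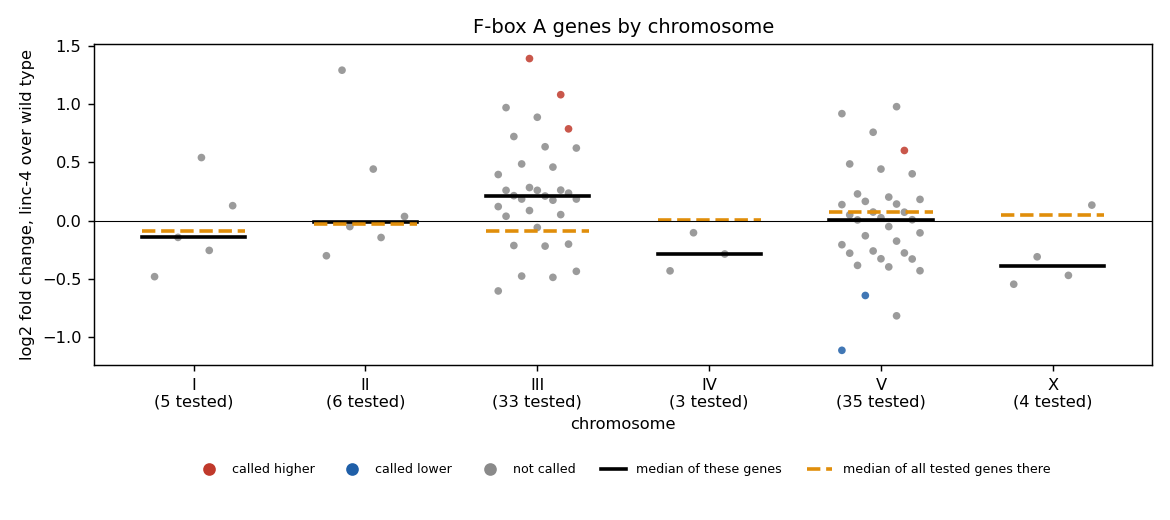
Log2 fold change (linc-4 over wild type) of the tested F-box A genes by chromosome, with the median of the members (solid line) and of all tested genes on that chromosome (dashed line). On chromosome III 25 of 33 points lie above 0, with a median of 0.21 against -0.09 for all genes there.

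Fold changes of both signs stood side by side in tandem groups, most of them short of the threshold. In the group of 29 on chromosome III, 15 members were tested, and 11 had values above 0 and 4 below, from -0.61 for fbxa-15 to 0.79 for fbxa-29. fbxa-19 in that group had 6.79, 6.69 and 6.62 CPM in linc-4 libraries and 4.37, 3.65 and 5.05 CPM in wild type libraries, with no overlap, and did not pass (log2 fold change 0.62, adjusted p = 0.074). In the group of 15 around fbxa-71, 4 were tested: fbxa-71 itself, fbxa-42, fbxa-219 and fbxa-38, whose log2 fold changes were 1.39, 0.89, 0.72 and -0.20. fbxa-219 had 5.63, 7.87 and 6.02 CPM in linc-4 libraries and 4.63, 3.81 and 3.25 CPM in wild type libraries, and just missed the threshold (adjusted p = 0.062). In the group of 11 nearer the start of chromosome III, 6 of 7 tested members lay above 0. On chromosome V, the 3 tested members fbxa-107, fbxa-210 and fbxa-211, which stand side by side within 4.95 kb, all lay below 0, with log2 fold changes of -0.43, -0.40 and -0.26, and none passed. fbxa-107 had 13.4, 15 and 15.8 CPM in linc-4 libraries and 21.9, 22.2 and 16.4 CPM in wild type libraries, with no overlap (adjusted p = 0.11). fbxa-19, fbxa-42, fbxa-219, fbxa-38, fbxa-15, fbxa-107, fbxa-211 and fbxa-224 were singled out after their values were seen. Some near-identical copies may share reads, and no source at hand states how the authors' counting treated such reads, so values of close paralogs are uncertain. Reads of 11 members, 4 of them tested (fbxa-59, fbxa-95, fbxa-2 and fbxa-189), could also be shared with a gene whose position overlaps theirs; none of the 6 called members was among these.

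The 89 untested members had a median of 14 reads over all 6 libraries and at most 68. Of these, 44 had at least 10 reads in 1 group. By summed reads scaled for depth, 26 of the 44 were higher in linc-4. The cut-off of 10 reads was on unscaled reads, and the linc-4 libraries held more reads in sum. Members high in linc-4 therefore reached it more easily, so the 26 of 44 is partly set by the cut-off. The exact 95% interval of the ratio, which covers counting error only, lay above 1 for 3 of the 44 (fbxa-138, fbxa-139 and fbxa-201). It lay below 1 for 3 (fbxa-5, fbxa-46 and fbxa-78). The 3 above 1 reached 10 reads in linc-4 alone, with 4, 3 and 3 reads in all wild type libraries. They thus entered through the group where they were high. The 3 below 1 had at least 10 reads in each group. fbxa-201 on chromosome V had 13, 7 and 11 reads in linc-4 libraries, against 0, 3 and 0 reads in wild type libraries. That is a 5.97-fold ratio with an interval of 1.86 to 30.5. With no filter on low counts, 10.4% of 21015 genes and 6 of 166 members were called, or 3.61%, and fbxa-201 was among them (log2 fold change 2.63, adjusted p = 0.017, limma-voom). In the authors' deposited table its adjusted p was 0.098. fbxa-9, with the most reads of the untested members, had 19, 9 and 17 reads in linc-4 libraries and 5, 8 and 10 in wild type libraries, which is 1.13-fold higher with a counting interval from 0.67 to 1.96.

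The members with a known ligase were barely detected. fbxa-75 had 0 reads in every linc-4 library, and 1, 0 and 0 reads in the wild type libraries. A count of 0 allows up to 3 reads, which is 0.384, 0.446 and 0.228 CPM in the linc-4 libraries. fbxa-158 had 6, 9 and 16 reads in linc-4 libraries and 1, 7 and 4 in wild type libraries, which is 1.49-fold higher with a counting interval from 0.75 to 3.19, so no difference was detectable at this depth. Of the genes of the intracellular pathogen response, 6 of 14 were tested and 1 was called. This is 16.7% of those tested, beside 18.7% of all tested genes. The called gene was skr-3, a Skp1-related adaptor. It had 120, 111 and 101 CPM in linc-4 libraries, against 79.7, 74.9 and 84.1 CPM in wild type libraries, a 1.38-fold rise (adjusted p = 0.033, limma-voom). That call was lost without any 1 library other than linc-4 3, with an adjusted p of up to 0.11 without linc-4 2. skr-4, skr-5 and cul-6 had log2 fold changes of 0.52, 1.29 and 0.07 and did not pass (adjusted p = 0.066, 0.12 and 0.85). All 6 tested genes of the response lay above 0, with a median log2 fold change of 0.31. Its 14 genes summed to 189, 185 and 160 CPM in linc-4 libraries and 127, 126 and 137 CPM in wild type libraries. These sums, which include skr-3, did not overlap with any of the 3 scalings, and their difference was not tested. pals-5 and chil-27, commonly used reporters of that response, had 6 and 8 reads in all linc-4 libraries and 2 and 4 in all wild type libraries.

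Like the family, the F-box A pseudogenes had few calls. Of 46, 24 were tested and none was called by limma-voom, limma-trend or in the authors' deposited table. Among them 1 had an unadjusted p under 0.05 (limma-voom), 15 values were above 0 and the median log2 fold change was 0.17. Their median SE was 0.30, against 0.21 for all tested genes, so changes may have been missed. In the other nematode-expanded F-box families most fold changes were below 0. For F-box B, 22 of 106 genes were tested, 20 had values below 0, the median was -0.63, and 3 were called lower: fbxb-7, fbxb-41 and fbxb-82. The family summed to 90.3, 86.3 and 89.5 CPM in linc-4 libraries and 129, 144 and 133 CPM in wild type libraries, with no overlap. For F-box C, 17 of 49 genes were tested, 15 had values below 0, the median was -0.41, and fbxc-51 and fbxc-45 were called lower. It summed to 184, 179 and 200 CPM in linc-4 libraries and 244, 252 and 223 CPM in wild type libraries, also with no overlap. The calls are 13.6% of the tested F-box B genes and 11.8% of the tested F-box C genes. Of all tested genes, 18.7% were called in either direction and 7.18% were called lower. Both medians stayed below 0 with each scaling, while that of F-box A stayed above 0 (0.05 to 0.17). The difference between the families was not tested, and oocyte and germline markers were lower in the same linc-4 libraries. The calls of fbxb-7, fbxb-41, fbxb-82, fbxc-51 and fbxc-45 were each lost without 3 or more of the single libraries, with adjusted p-values of up to 0.11, 0.071, 0.14, 0.076 and 0.14.

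**Figure D5:**
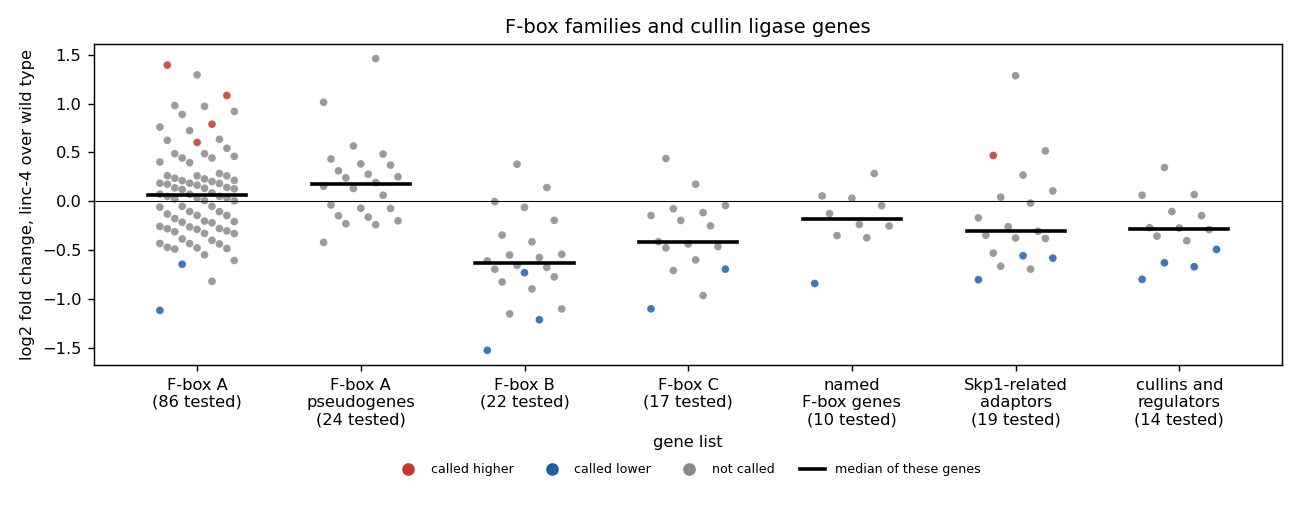
Log2 fold change (linc-4 over wild type) of the tested genes of each list, with called genes in colour and the median of each list as a line. F-box A lies around 0 (median 0.06), F-box B and F-box C mostly below (medians -0.63 and -0.41).

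Genes of the SCF ligase outside these families were lower in linc-4 worms where they were called, except skr-3. Of 10 named F-box genes lin-23, the worm homolog of beta-TrCP, was the one called. It had 19.6, 18.1 and 16.5 CPM in linc-4 libraries, against 31.1, 32.0 and 33.2 CPM in wild type libraries, and was 1.79-fold lower (log2 fold change -0.84, SE 0.16, adjusted p = 0.0034, limma-voom). The groups lay far apart, and the call held without any 1 library. Among the Skp1-related adaptors, 19 of 20 were tested, with 1 higher and 3 lower and a median log2 fold change of -0.31. The calls are 21.05% of those tested, beside 18.7% of all tested genes. skr-14 had 28.2, 25.1 and 25.3 CPM in linc-4 libraries and 42.7, 44.3 and 49.8 CPM in wild type libraries, and was 1.75-fold lower (adjusted p = 0.0035), a call that held without any 1 library. skr-7 was 1.497-fold lower (adjusted p = 0.016) and skr-10 1.47-fold lower (adjusted p = 0.030), and both were lost without linc-4 2, among other libraries (adjusted p = 0.081 and 0.11).

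Of the 14 cullins and their regulators, all tested, 4 were called lower and none higher by limma-voom, limma-trend or the authors. None was higher at an unadjusted p under 0.05 (limma-voom), and the median log2 fold change was -0.28. The 4 calls are 28.6% of the list, beside 18.7% of all tested genes called and 7.18% called lower. The difference between these shares was not tested. cul-1, the cullin of the SCF ligase, had 36.6, 35.5 and 40.4 CPM in linc-4 libraries, against 51.7, 72.5 and 55.9 CPM in wild type libraries, with no overlap. It was 1.59-fold lower (adjusted p = 0.014, limma-voom). cand-1, which exchanges the substrate receptors of cullin ligases, had 19.97, 14.7 and 20.6 CPM in linc-4 libraries and 29.6, 32.3 and 34.1 CPM in wild type libraries. It was 1.74-fold lower (adjusted p = 0.0086). dcn-1, which promotes the attachment of NEDD8 to cullins, was 1.55-fold lower (adjusted p = 0.029), and cul-2, the scaffold of another cullin ligase class, 1.41-fold lower (adjusted p = 0.027). Without linc-4 2, each of these 4 missed the threshold, cul-1 at an adjusted p of 0.067 and cand-1 at 0.053. Whether the lower oocyte and germline markers play a part in these levels was not tested.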

How the data were processed

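Per the labels, polyadenylated RNA was prepared with TRIzol and a column kit. Per the submitters' processing notes, the tools of the authors were TopHat2 2.1.1, cutadapt 2.10, DESeq2 1.22.2 and HTSeq 0.12.4, and the build was WBcel235; no source at hand states strand settings or the treatment of shared reads. The table deposited by the authors holds raw read counts for 22389 of 46904 genes (the other 24515 carry a question mark, read as no value), and the authors' log2 fold changes and adjusted p-values. The authors' normalized values, 6 columns, were not used.

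The deposited counts were tested with limma-voom (limma 3.58.1, R 4.3.3), since the question marks kept the columns from being registered as counts, on trimmed-mean scaling (30% of log ratios and 5% of abundances trimmed). Adjustment was Benjamini-Hochberg over all 13778 tested genes, two-sided, at 0.05. The fit was tested on simulated data. Tested genes held 99.7% to 99.8% of reads. A floor of 3 reads was 0.228 to 0.771 CPM; floors and count intervals cover counting error only. Pairs of libraries within a group differed by more than counting noise (chi-square per degree of freedom 5.30 to 21.1).

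Members and lists were chosen with earlier results of these data known. Named were called members, the 5 highest by level, fbxa-75 and fbxa-158, tested members of the tandem group next to a called one, called genes of each list (at most 6) and untested members with 10 reads in 1 group; a rule on similar proteins could not be applied. Exon lengths are from Ensembl release 115 (WBcel235), in which 42 of the 175 members have the deposited positions exactly. One list gene, rcs-1, was not matched. Alternatives were other scalings, filters, limma-trend, a replicate block, leaving out each library, and the authors' table.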

Additional observations from a re-analysis of the deposited data

How the results depend on the processing

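Over all genes, 2580 calls became 1714 with a replicate block and between 948 and 2866 when 1 library was left out. For F-box A genes called higher in linc-4, the 4 calls became 1 with the replicate block (limma-voom adjusted p = 0.061 for fbxa-155, 0.073 for fbxa-156 and 0.067 for fbxa-29), 1 in the authors' deposited table and between 1 and 4 when 1 library was left out. For F-box A genes called lower, the 2 calls became 1 with upper-quartile scaling and between 1 and 2 when 1 library was left out. For the other F-box and ligase genes, the 14 calls became 8 with the replicate block and between 3 and 14 when 1 library was left out. The median log2 fold change of the tested members was 0.17 with upper-quartile scaling, which moved all genes by 0.11, and between 0.003 and 0.094 when 1 library was left out. The cause was not tested. Other settings left these counts within 1.5 times. No called member named changed direction under any alternative run; the uncalled fbxa-31 was at -0.003 without wild type 3, against 0.18 as reported. The labels share replicate numbers, and no source at hand states whether these mark a shared culture or batch. Deviations of same-numbered libraries correlated at 0.10, -0.11 and -0.41 over genes. With 3 libraries per group, these values cannot decide whether the numbers pair libraries. At this depth 89 of 175 members had too few reads to test, and 28 of 80 uncalled members had intervals that reached 2-fold.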
